A study of Mus musculus with 26 samples.

Results

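Expression of lipolysis genes was measured in inguinal subcutaneous white fat (SCWAT) of refed mice that lacked the transcription factor ChREBP, or only its shorter isoform, and of their WT littermates. The members were 9 genes, Pnpla2, Pnpla3, Lipe, Mgll, Abhd5, G0s2, Aqp7, Ces1d and Ces1f. They were taken as all probes that carry one of these gene names on the array, which gave 16 of 56605 probes. Of these, 15 passed the filter on spot quality, among 38832 probes for 25407 gene names that were tested. All 15 were well above background on all 26 arrays, so no member entered through 1 group alone. The remaining probe, A_51_P174133 of Lipe, was well above background on 1 array and had intensities between 15.5 and 33, and it was not tested.

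In a fat cell, triglyceride is stored in a droplet and is broken down by lipases that act in sequence. ATGL, the product of Pnpla2, removes the first fatty acid, hormone-sensitive lipase (Lipe) cleaves the diglyceride, and monoglyceride lipase (Mgll) frees the last fatty acid from glycerol. Abhd5 encodes CGI-58, the coactivator of ATGL, and G0s2 encodes its inhibitor. Pnpla3 is the closest relative of Pnpla2. In liver it is known as a lipogenic gene that rises on refeeding, and its protein competes with ATGL for CGI-58. Ces1d and Ces1f are carboxylesterases with triglyceride hydrolase activity, and Aqp7 is the channel through which glycerol leaves the fat cell. Lipolysis is high in fasting and is held down by insulin after a meal.

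The arrays came from male C57BL6/J mice in 4 groups, with 1 array per mouse. Total ChREBP KO mice (n = 7) are null for Mlxipl, the gene that encodes ChREBP, and so lack both isoforms. ChREBPβ KO mice (n = 5) lack the exon specific to the shorter isoform. Each KO was compared with WT littermates of its own line (n = 7 for each line). Both deletions were present in all tissues of the animal, not in fat cells alone. Mice of every group had been fasted for 24 h and refed for 18 h with food and with water that held 20% glucose, and their age is not given in the sources used here. No group was sampled in the fasted state.

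Arrays had median spot intensities from 59 to 107.5, between 70.2% and 76.5% of their spots were well above background, and Pearson's r between arrays was between 0.953 and 0.997 across probes. Mlxipl, at probe A_55_P2119957, was lower by 2.29 on the log2 scale in total ChREBP KO and by 1.52 in ChREBPβ KO, with no overlap of KO and WT mice. Probe A_55_P2728555 fell by 0.90 in total KO and had a value of -0.68 in ChREBPβ KO that was not called (adjusted p = 0.054), and probe A_55_P2045158 was called in neither line (-0.13 and 0.04). All 10 adipocyte markers, Adipoq and Plin1 among them, were well above background on all arrays, except Adipoq on 1 array of total ChREBP WT. The lymphocyte markers were highest in the WT mice of the total line, with some overlap with the total KO mice. The mean log2 intensity over 13 such genes was between 10.92 and 12.47 in total ChREBP WT, between 8.19 and 11.25 in total ChREBP KO, and between 7.52 and 9.05 over both groups of the ChREBPβ line. The total KO mice were split, with replicates 1, 4 and 7 at 8.19, 8.84 and 8.20 and the others from 10.35 to 11.25. The values behind this are given beside the members below. In tissue RNA, fewer cells of a type and less RNA per cell cannot be told apart.

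ChREBP binds DNA as a dimer with MLX at carbohydrate response elements, which hold a pair of E-boxes, and CACGTG is the perfect E-box. The 250 bases before the transcription start are printed for the pair of relatives whose contrast is described below, Pnpla2 and Pnpla3, and for the members with an E-box in this window. The sequences are RefSeq's, in build GRCm38.p6, written 5′ to 3′ on the strand of the gene, with CACGTG in capitals. Promoters were found for 7 of the 9 members, and none was printed for Ces1d and Ces1f.
Pnpla2, chr7:141454938-141455187, plus strand: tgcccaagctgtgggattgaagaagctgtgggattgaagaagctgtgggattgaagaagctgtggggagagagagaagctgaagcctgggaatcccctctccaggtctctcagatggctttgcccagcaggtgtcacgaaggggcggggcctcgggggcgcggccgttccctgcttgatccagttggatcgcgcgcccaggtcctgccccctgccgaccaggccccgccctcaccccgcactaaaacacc
Pnpla3, chr15:84167566-84167815, plus strand: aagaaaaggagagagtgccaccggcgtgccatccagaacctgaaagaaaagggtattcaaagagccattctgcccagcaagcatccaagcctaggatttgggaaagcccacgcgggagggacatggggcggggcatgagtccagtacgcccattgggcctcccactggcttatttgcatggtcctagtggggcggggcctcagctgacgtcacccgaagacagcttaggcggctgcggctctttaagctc
Mgll, chr6:88724162-88724411, plus strand: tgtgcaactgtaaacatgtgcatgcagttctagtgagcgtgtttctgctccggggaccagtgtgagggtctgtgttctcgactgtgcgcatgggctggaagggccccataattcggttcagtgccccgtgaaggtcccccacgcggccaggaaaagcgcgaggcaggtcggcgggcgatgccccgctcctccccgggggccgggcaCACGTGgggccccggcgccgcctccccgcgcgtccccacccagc
Lipe, chr7:25395988-25396237, minus strand: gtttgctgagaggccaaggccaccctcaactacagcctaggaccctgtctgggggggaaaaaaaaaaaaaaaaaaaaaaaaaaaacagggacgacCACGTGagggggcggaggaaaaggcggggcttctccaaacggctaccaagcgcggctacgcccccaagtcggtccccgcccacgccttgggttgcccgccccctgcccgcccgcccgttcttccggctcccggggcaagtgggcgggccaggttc
CACGTG, which reads the same on both strands, was found in 2 of the 10 member promoters. It begins at position -44 from the start in Mgll and at -155 from the upstream start in Lipe. The same letters were in 6.02% of the 32851 promoters of this length. The perfect form of the DR1 motif, the direct repeat bound by PPAR with RXR, was searched on both strands and had 0 matches in the 10, against 0.0335% of all promoters. These matches describe a short window and say nothing on binding.

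Loss of both isoforms went with higher expression of most lipolysis genes in refed fat. At the brightest probe of each gene, 6 of the 9 members rose in total ChREBP KO and 0 fell, by limma at an adjusted p of 0.05. Of all genes, 25.8% were called higher in this comparison. The members that rose were Pnpla2, Abhd5, Mgll, Ces1d, Ces1f and Aqp7, and each of these 6 had KO arrays that lay wholly above the WT arrays, against 9.96% of all genes. The median log2 fold change was 0.54 over the 9 members and 0.05 over all genes. G0s2 and Lipe had positive values that did not pass the test at that probe, and Pnpla3 alone had a negative one.

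**Figure D1:**
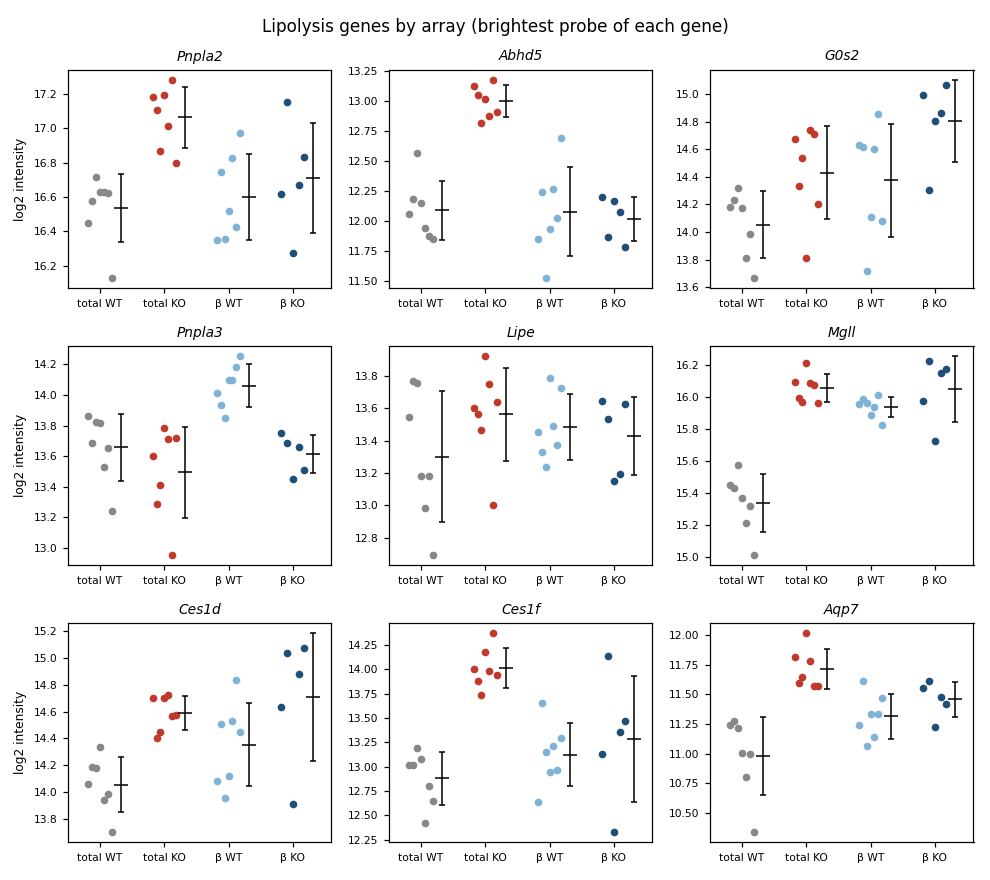
Log2 intensity (y axis of each panel) of the 9 lipolysis genes in each of the 26 arrays, by group (x axis), at the brightest probe of each gene. Points are mice, and the bar beside them is the mean with its SD (n = 7, 7, 7 and 5 from left to right). Total KO mice lie above all of their WT mice for Pnpla2, Abhd5, Mgll, Ces1d, Ces1f and Aqp7, and β KO mice lie below all of theirs for Pnpla3.

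Among the genes of the first step, Pnpla2 in total ChREBP WT had log2 intensities from 16.13 to 16.72, with a median of 16.62, and in total ChREBP KO from 16.80 to 17.28, with a median of 17.11. All 7 KO mice were above all 7 WT mice, and the log2 fold change was 0.53 ± 0.12 (SE), a 1.44-fold rise, with an adjusted p of 0.000925. Abhd5, the coactivator, rose more. At its brightest probe it had values from 11.85 to 12.56 (median 12.06) in WT and from 12.82 to 13.18 (median 13.02) in KO. The KO mice were tightly grouped, with an SD of 0.13, and the log2 fold change was 0.91 ± 0.13 (SE, adjusted p = 4.93e-06). The probe A_52_P273821, 11657 bp upstream in build mm9, gave 1.02 ± 0.16 (SE, adjusted p = 1.24e-05). The most upstream Abhd5 probe, A_55_P2719519, gave 0.20 ± 0.17 (SE, adjusted p = 0.343), so the probes of this gene disagreed in size. G0s2, the inhibitor, had values from 13.66 to 14.32 in WT and from 13.81 to 14.74 in KO, and these ranges overlapped. Its log2 fold change was 0.38 ± 0.17 (SE), with an adjusted p of 0.0691. That call depended on the processing: the adjusted p was 0.0371 where all spots were quantile normalized before replicate spots were merged, and 0.0195 without KO replicate 4.

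For the later steps, the call for Lipe differed between its probes, while both probes of Mgll rose. The brightest Lipe probe, A_55_P2728901, ran from 12.69 to 13.77 in WT and from 13.00 to 13.92 in KO, and these ranges overlapped. Its log2 fold change was 0.26 ± 0.15 (SE, adjusted p = 0.164). The dimmer probe A_51_P435363, 2158 bp away on chromosome 7, gave 0.39 ± 0.11 (SE) and passed the test (adjusted p = 0.00459), with 1.31-fold higher expression in KO. Mgll ran from 15.01 to 15.57 in WT (median 15.37) and from 15.96 to 16.21 in KO (median 16.07). There was a gap between the groups that was wider than the spread of the KO mice. Its log2 fold change was 0.72 ± 0.08 (SE, adjusted p = 5.46e-08), a 1.64-fold rise and the smallest p of the members. The other Mgll probe, 63656 bp upstream in mm9, rose by 0.56 ± 0.10 on the log2 scale (SE, adjusted p = 4.59e-05), also without overlap.

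The carboxylesterases and the glycerol channel rose as well. Ces1f showed the largest change of the members, from values between 12.43 and 13.19 (median 13.02) in WT to values between 13.74 and 14.37 (median 13.98) in KO. The log2 fold change was 1.13 ± 0.19 (SE, adjusted p = 2.93e-05), a 2.19-fold rise. Ces1d, whose probe lies 81217 bp from that of Ces1f on chromosome 8 (mm9), rose from between 13.70 and 14.33 to between 14.41 and 14.73. The groups were close but did not overlap, and the log2 fold change was 0.54 ± 0.15 (SE, adjusted p = 0.00457). The 2 genes belong to a cluster of close relatives, and cross-hybridisation between them was not tested. Aqp7 ran from 10.34 to 11.27 in WT and from 11.57 to 12.02 in KO. It rose by 0.73 ± 0.12 on the log2 scale (SE, adjusted p = 1.93e-05) at this probe and by 0.48 ± 0.11 at the other (SE, adjusted p = 0.00099), where the groups overlapped.

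These rises were seen in every wash batch, the batch in which arrays were washed according to the labels. The KO minus WT difference was positive in 4 of 4 batches for Pnpla2 (0.31 to 0.77), Abhd5 (0.41 to 1.16), Mgll (0.46 to 0.91), Ces1d (0.29 to 0.80), Ces1f (0.68 to 1.45) and Aqp7 (0.34 to 1.01). G0s2 was positive in 4 of 4 as well, from 0.02 to 0.90, and Lipe in 2 of 4, from -0.22 to 0.69. In the WT group, replicate 8 was the lowest array at 13 of the 15 member probes. With any 1 array left out, that one included, 6 or 7 members were called.

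Markers of fat cells and of other cell types moved with the same comparison. The mean log2 intensity of 10 adipocyte markers was between 15.38 and 15.80 in total ChREBP WT and between 16.01 and 16.16 in total ChREBP KO, so these groups did not overlap either. Of the 10 markers, 9 rose and 1 fell, which was Slc2a4, the insulin-responsive glucose transporter. All 13 lymphocyte markers fell in KO, with a median log2 fold change of -2.39, and so did the 3 tested markers of lymph node stroma. No lymphocyte marker was at background, since each was detected in 6 or 7 of the mice of either group. Of the 7 markers of brown and beige adipocytes, 5 fell and 1 rose (median -1.82). Of the 12 skeletal muscle markers, 4 rose and 0 fell (median 2.68), with list means from 6.10 to 12.04 (median 6.27) in WT and from 6.27 to 13.60 (median 11.08) in KO, which overlapped.

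**Figure D2:**
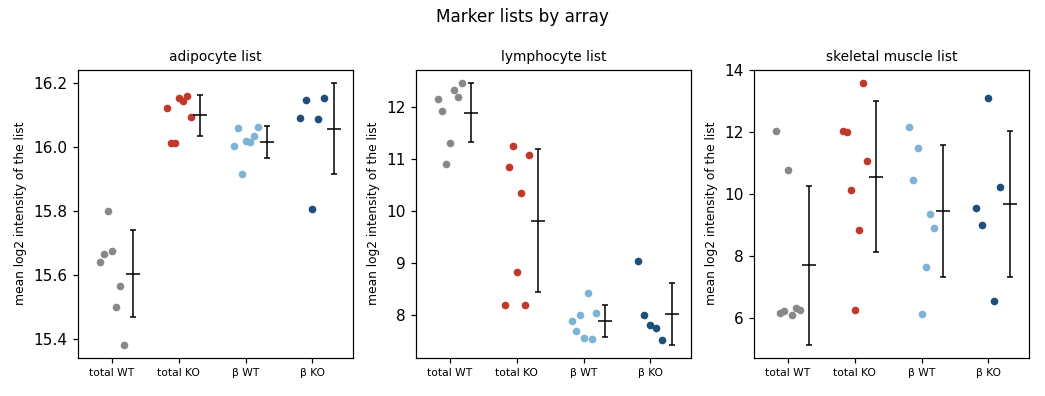
Mean log2 intensity (y axis) of the adipocyte list (10 genes), the lymphocyte list (13 genes) and the skeletal muscle list (12 genes) on each array, by group (x axis). Points are mice and bars are the mean with its SD. Total WT mice are the lowest group for adipocyte markers (15.38 to 15.80) and the highest for lymphocyte markers (10.92 to 12.47).

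The part of these markers in the members' values was not tested beyond the fits that follow. With the lymphocyte score as a covariate, 4 members rose in total ChREBP KO, and 2542 of the 25407 genes were called higher. Mgll (0.56), Abhd5 (0.74), Aqp7 (0.57) and Ces1f (0.85) passed the test, whereas Pnpla2 (0.32, adjusted p = 0.205) and Ces1d (0.35, adjusted p = 0.272) did not. With the adipocyte score as a covariate, 0 members rose and 1 fell, and 811 genes were called higher. That score does not overlap between these groups, so this fit separates them poorly. Mgll had a log2 fold change of 0.13 ± 0.10 (SE) and Abhd5 of 0.42 ± 0.27 under it, and Pnpla2 (-0.24), Ces1d (-0.57), Ces1f (-0.19) and Aqp7 (-0.09) took negative values that did not pass. Lipe (-0.63, adjusted p = 0.167) and G0s2 (-0.16), not called in the main fit, also took negative values that did not pass. The member that fell was Pnpla3, by 0.70 (adjusted p = 0.0495). With the skeletal muscle score as a covariate, the count stayed at 6, and 6010 genes were called higher. Without the 3 KO mice of lowest lymphocyte score, which were chosen after the data had been seen, 6 members were called as well, with Ces1d at an adjusted p of 0.0493.

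In ChREBPβ KO, no lipolysis gene was called. None of the 9 members passed the test in ChREBPβ KO by limma, 3 had an unadjusted p under 0.05, and 0.0512% of all genes were called in either direction. The median log2 fold change of the members was 0.11. Pnpla2 had values of 16.62, 17.16, 16.27, 16.67 and 16.83 in the 5 KO mice, and from 16.35 to 16.97 in WT. The KO values spanned the WT range, and the difference of 0.11 had a 95% interval from -0.16 to 0.38. The estimate of 0.53 in the other line had an interval from 0.28 to 0.78. These intervals overlap, and the difference between the lines for Pnpla2, tested below, was not called. Abhd5 had values of 12.20, 11.87, 12.17, 12.07 and 11.79 in KO and from 11.53 to 12.69 in WT. Its difference was -0.06, with a 95% interval from -0.36 to 0.24. Mgll had values of 15.97, 16.22, 15.73, 16.15 and 16.17 in KO, against 15.82 to 16.01 in WT, and its difference of 0.11 had an interval from -0.06 to 0.28. The other Mgll probe gave 0.25, with an interval from 0.04 to 0.47 and an adjusted p of 0.546.

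At the brightest probes, the members with the smallest p were Pnpla3, G0s2 and Ces1d. G0s2 had values of 14.99, 14.30, 14.81, 14.86 and 15.07 in KO and from 13.72 to 14.86 in WT, with a log2 difference of 0.43 ± 0.18 (SE) and adjusted p of 0.558. Ces1d had values of 14.63, 15.04, 13.91, 14.88 and 15.07 in KO and from 13.96 to 14.84 in WT. Its difference was 0.35 ± 0.16 (SE, adjusted p = 0.599), and KO replicate 4 lay below all WT mice while 3 KO mice lay above them. That mouse was the lowest of its group at 11 of the 15 member probes and also had the lowest adipocyte score, 15.81. Ces1f spread most in this group, with values of 13.13, 14.13, 12.33, 13.36 and 13.47, an SD of 0.65, and a difference of 0.16 ± 0.21 (SE). Abhd5 had a lower value at its most upstream probe as well, -0.45 ± 0.18 (SE, adjusted p = 0.542). The interval for Lipe at its brightest probe ran from -0.40 to 0.29 and that for Aqp7 from -0.12 to 0.41.

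**Figure D3:**
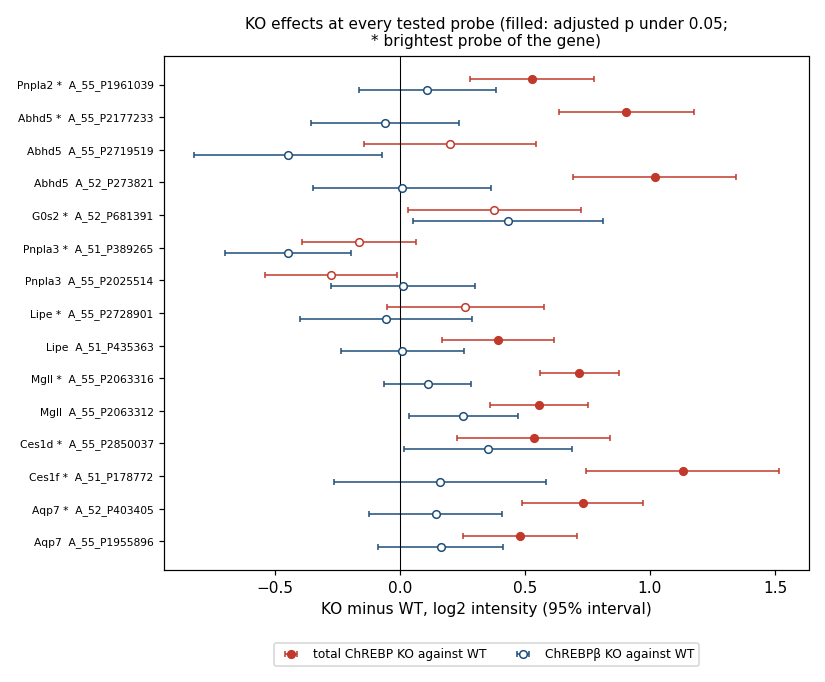
KO minus WT log2 intensity (x axis) at each of the 15 tested probes of the members (y axis), with the 95% interval from limma, for total ChREBP KO (red) and ChREBPβ KO (blue). Filled points have an adjusted p under 0.05, and there are 10 of these in total KO and 0 in β KO.

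The KO effects themselves differed for 4 members. The interaction term, the ChREBPβ effect minus the total effect, was called lower for Abhd5 (-0.97 ± 0.19, SE), Ces1f (-0.97 ± 0.28), Mgll (-0.61 ± 0.11) and Aqp7 (-0.59 ± 0.17), with adjusted p from 0.0005 for Mgll to 0.0168 for Aqp7. It was called higher for 0 members, and 13.1% of all genes were called lower. Only Abhd5 had the call at a further probe (-1.01 ± 0.23, SE, adjusted p = 0.00331), and its most upstream probe was not called (-0.65, adjusted p = 0.0615). The other probe of Mgll gave -0.30 (adjusted p = 0.131), that of Aqp7 gave -0.32 (adjusted p = 0.174), and Ces1f has a single one. For Pnpla2 the term was -0.42 ± 0.18 (SE) and missed the threshold (adjusted p = 0.0968). It passed without ChREBPβ KO replicate 2, the mouse of highest Pnpla2, at -0.53 (adjusted p = 0.0295). Ces1d and G0s2, with terms of -0.18 and 0.05, missed the threshold with wide intervals, from -0.64 to 0.27 for Ces1d and from -0.46 to 0.57 for G0s2. The lymphocyte score as a covariate left 2 of the 4 calls, those of Mgll and Abhd5, and the removal of the 3 KO mice of lowest lymphocyte score likewise left 2. With the slide as a fixed block 0 of the 4 were called, at values of -0.96 for Abhd5, -0.56 for Mgll, -0.49 for Aqp7 and -0.57 for Ces1f. With the adipocyte score 0 of the 4 were called either, and the values were -0.52 for Abhd5, -0.07 for Mgll, 0.17 for Aqp7 and 0.24 for Ces1f. Under the adipocyte score, Ces1d was called instead, with the opposite sign (0.83, adjusted p = 0.0278). Over all genes, 3329 were called lower by this term in the main fit. That count was 1055 with the lymphocyte score, 1887 without the 3 KO mice, 296 with the slide as a fixed block and 626 with the adipocyte score.

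The WT mice of both lines differed across all genes, and the members were no exception. Against WT of the total line, WT of the ChREBPβ line had 3 members called higher and 0 lower, beside 26.2% of all genes called higher and 19.6% called lower. Mgll was higher by 0.60 ± 0.08 (SE, adjusted p = 8.17e-07), Pnpla3 by 0.40 ± 0.11 (SE, adjusted p = 0.00447) and Aqp7 by 0.33 ± 0.12 (SE, adjusted p = 0.0227) on the log2 scale. The upstream Pnpla3 probe gave the opposite sign, -0.28 (adjusted p = 0.0781), and with the slide as a fixed block Pnpla3 (0.37, adjusted p = 0.0835) and Aqp7 (0.35, adjusted p = 0.0645) were not called. This comparison uses the same WT mice as the total ChREBP KO comparison, and the levels of the KO mice can be set beside it. The mean for Mgll was 15.34 in total ChREBP WT, 16.06 in total ChREBP KO, 15.94 in ChREBPβ WT and 16.05 in ChREBPβ KO, so the total WT mice stood apart from the other three groups. For Abhd5 the means were 12.09, 12.99, 12.08 and 12.02 in the same order, so there the total KO mice stood apart. Ces1f followed the pattern of Abhd5, with means of 12.88, 14.01, 13.12 and 13.28, and Pnpla2 did so too, with 16.54, 17.06, 16.60 and 16.71. Both groups are WT, and what differs between the colonies cannot be told apart from the line. With the lymphocyte score as a covariate 0 members were called in this comparison, and of all genes 497 were called higher and 541 lower. With the adipocyte score, the 3 higher calls were lost and 3 other members were called lower, Pnpla2 (-0.58, adjusted p = 0.0258), Ces1d (-0.62, adjusted p = 0.0191) and Ces1f (-0.86, adjusted p = 0.0183). Of all genes, 2588 were then called higher and 1959 lower. Neither score overlaps between the WT groups, so these fits separate score and line poorly. The adipocyte score was between 15.38 and 15.80 in total ChREBP WT and between 15.91 and 16.06 in ChREBPβ WT. The lymphocyte score was between 10.92 and 12.47 and between 7.56 and 8.43 in the same order. In the fit without a covariate and without ChREBPβ WT replicate 3, the lowest array of its group at 11 of the 15 probes, 5 members were called higher, since G0s2 (0.43) and Ces1d (0.37) then passed. The share of all genes was not counted for that fit. The call for Aqp7 was lost without any of 3 single mice, ChREBPβ WT replicate 2 (0.28), total ChREBP WT replicate 6 (0.30) or total ChREBP WT replicate 8 (0.23). The lymphocyte list was lower in ChREBPβ WT for 13 of 13 genes and the adipocyte list was higher for 7 of 10. Other lists differed as well. Brown and beige adipocytes (7 of 7), red blood cells (3 of 3) and lymph node stroma (2 of 3) had genes called lower. Fibroblasts (5 of 5), macrophages (4 of 7) and endothelium (2 of 4) had genes called higher, and skeletal muscle and epithelium had 0 calls.

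The probes of Pnpla3 gave different values. The downstream probe A_51_P389265 (chr15:84019823-84019882 of mm9) and the upstream probe A_55_P2025514 (chr15:84016440-84016499) are 3383 bp apart on the plus strand, and which exon or untranslated region each lies in was not determined for this build. At the downstream probe, ChREBPβ KO mice had values of 13.75, 13.69, 13.45, 13.66 and 13.51, all below the WT range of 13.85 to 14.25. The difference was -0.45 ± 0.12 (SE) with an unadjusted p of 0.00113 by limma and an adjusted p of 0.266, and Pnpla3 was the 1 member without overlap in this line, against 0.366% of all genes. It was negative in 3 of 3 wash batches that held both genotypes, from -0.70 to -0.38. At the upstream probe the KO values were 12.62, 12.43, 12.38, 12.45 and 12.41, within the WT range of 12.23 to 12.74, and the difference was 0.01 ± 0.14 (SE). In the total line the downstream probe gave -0.16 ± 0.11 (SE, adjusted p = 0.235) and the upstream probe -0.28 ± 0.13 (SE, adjusted p = 0.0801). The downstream minus upstream value of a mouse averaged 1.62 ± 0.26 (SD, n = 7) in ChREBPβ WT, against 1.16 ± 0.08 (SD, n = 5) in ChREBPβ KO, 0.94 ± 0.18 (SD, n = 7) in total WT and 1.05 ± 0.13 (SD, n = 7) in total KO. The ChREBPβ WT mice were thus the group that differed in the ratio of both probes, a description made after the values had been seen.

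Pnpla3 was next set against Pnpla2 within each mouse, since both compete for the same coactivator. Only the change of this difference between groups is read, because the levels of 2 probes cannot be compared. Pnpla3 minus Pnpla2, at the brightest probes, was between -3.10 and -2.58 (median -2.89) in total ChREBP WT and between -4.33 and -3.08 (median -3.46) in total ChREBP KO. The ranges overlapped through 1 KO mouse, the highest, which lay just above the lowest WT mouse. The mean moved by -0.69 ± 0.16 (SE), with an exact two-sided permutation p of 0.00117 over 3432 arrangements. In the ChREBPβ line the difference was between -2.81 and -2.25 in WT and between -3.47 and -2.82 in KO, so the groups lay next to each other without overlap. The mean moved by -0.56 ± 0.15 (SE), and the exact permutation p of 0.00253 is the smallest that 5 against 7 mice can give. With the upstream Pnpla3 probe, the shift in the total line was -0.80 ± 0.14 (SE, exact permutation p = 0.000583, the smallest possible), and that in the ChREBPβ line was -0.10 ± 0.18 (SE, exact permutation p = 0.569). The Benjamini-Hochberg adjusted values over these 4 tests were 0.00233, 0.00337, 0.00233 and 0.569 in the order given. Within wash batches, the shift at the brightest probes was between -1.08 and -0.29 in 4 batches of the total line and between -0.82 and -0.41 in 3 batches of the ChREBPβ line. In the total line Pnpla2 was called higher and neither Pnpla3 probe was called, and the log2 fold changes behind the shift were 0.53 for Pnpla2 and -0.16 for downstream Pnpla3. In the ChREBPβ line these values were 0.11 and -0.45. The total line thus showed the shift at both Pnpla3 probes, and the ChREBPβ line at the downstream one alone.

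**Figure D4:**
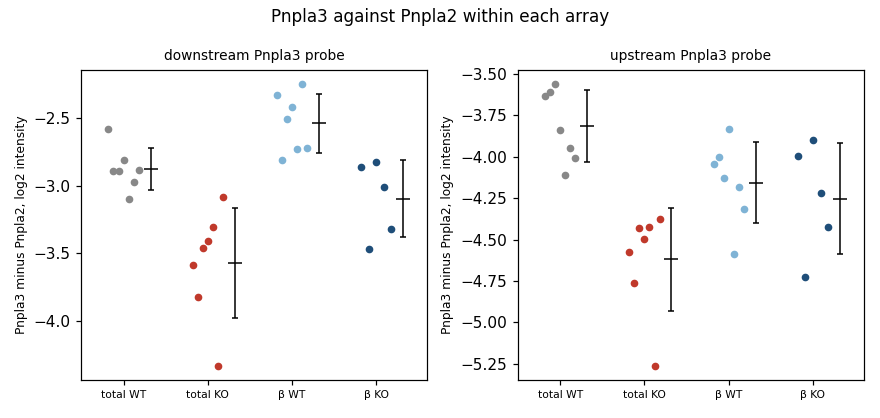
Pnpla3 minus Pnpla2 log2 intensity (y axis) within each mouse, by group (x axis), with the downstream Pnpla3 probe on the left and the upstream probe on the right. Points are mice and bars are the mean with its SD. In the total line KO mice are lower with both probes (-0.69 and -0.80), and in the ChREBPβ line with the downstream probe (-0.56) but not the upstream one (-0.10).

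Over the 26 arrays, the genes whose pattern was most like that of Pnpla2 were Txlng (Pearson's r = 0.91), Nfs1 (0.91) and Ephx2 (0.91), out of 17303 other genes with a symbol. With group means removed, r was 0.87, 0.81 and 0.91. For Pnpla3 the closest genes depended on the probe. They were Gpn1 (0.80), Ptch1 (0.79) and Prrg2 (0.77) at the downstream probe, and Pfdn6 (0.82), Ndufa11 (0.80) and Cox10 (0.78) at the upstream one, so the probes had none of these genes in common. The points share arrays, tissue samples and normalization, and the values describe these arrays only.

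Genes around the lipases moved in both directions in total ChREBP KO and had 0 calls in ChREBPβ KO. Of all genes, 25.8% were called higher and 20.1% lower in total ChREBP KO, and 0.0512% in either direction in ChREBPβ KO. Of 31 genes of lipolysis signalling, which are receptors, G proteins, cyclases, kinases and phosphodiesterases, 18 rose and 4 fell, with a median log2 fold change of 0.40. The largest rise was that of Tshr, the thyrotropin receptor, at 2.42 ± 0.19 (SE, adjusted p = 4.15e-10). The largest fall was that of Adrb1, the β1-adrenergic receptor, which decreased by 1.69 ± 0.16 (SE, adjusted p = 5.16e-09). Both are receptors that raise cyclic AMP in fat cells, and they moved in opposite directions. In ChREBPβ KO they had values of 0.29 and 0.07.

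Of 10 lipid droplet proteins, 6 rose and 3 fell (median 0.49). Plin4, a droplet coat protein, rose by 1.20 ± 0.11 (SE, adjusted p = 6.48e-09), and Cidea, a droplet protein typical of brown and beige fat, fell by 2.07 ± 0.30 (SE, adjusted p = 4.97e-06). Among 18 other lipid hydrolases 8 rose and 4 fell (median 0.07). Lpl, the lipoprotein lipase that releases fatty acids from circulating triglyceride, rose by 1.54 ± 0.08 (SE, adjusted p = 2.6e-13), and Ddhd2, an intracellular lipase, fell by 1.65 ± 0.10 (SE, adjusted p = 1.72e-12). For the handling of the products, fatty acids and glycerol, 4 of 12 genes rose and 3 fell (median -0.16). Acsl1, which activates fatty acids to acyl-CoA, rose by 1.40 ± 0.08 (SE, adjusted p = 1.91e-12), and Aqp3, another glycerol channel, fell by 1.34 ± 0.28 (SE, adjusted p = 0.000355). Aqp3 thus moved against Aqp7.

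Of 10 transcription factors that act on lipolysis genes, 4 rose and 3 fell (median 0.19). Cebpa, an adipogenic factor, rose by 1.14 ± 0.08 (SE, adjusted p = 1.42e-11), and the immediate early gene Egr1 fell by 1.40 ± 0.42 (SE, adjusted p = 0.00875). Cebpa and 1 other gene of this list, 2 of the droplet list and 1 of the product list also stand in the adipocyte list, whose rise is given above. In ChREBPβ KO the values were 0.31 for Plin4, -0.83 for Cidea, 0.21 for Lpl, -0.23 for Ddhd2, 0.20 for Acsl1, 0.06 for Aqp3, 0.05 for Cebpa and 0.50 for Egr1, none of which passed the test. The interaction term passed the test for each of these 8 genes and for Tshr and Adrb1, with the largest size of -2.13 ± 0.29 (SE) for Tshr and the highest adjusted p of 0.0464 for Cidea. All of them were named for their extreme effects in total ChREBP KO. That effect is part of the term, so these passes are not separate evidence of a difference between the lines. Of all genes, 23.2% passed the term in either direction.

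**Figure D5:**
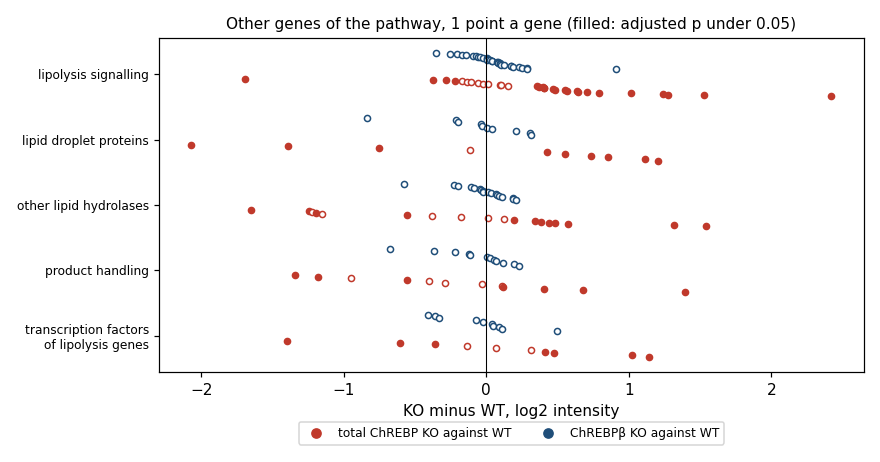
KO minus WT log2 intensity (x axis) of the genes of 5 pathway lists (y axis), with 1 point a gene at its brightest probe, for total ChREBP KO (red) and ChREBPβ KO (blue). Filled points have an adjusted p under 0.05 by limma. Red points spread in both directions, from -2.07 for Cidea to 2.42 for Tshr, and no blue point is filled.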

How the data were processed

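Total RNA of inguinal fat was hybridised to 1-colour Agilent mouse arrays, with 1 array per mouse, and scanned and read by the authors with Agilent Feature Extraction 10.10.1.1, per the labels. The deposited scanner files hold a linear intensity per spot, not yet normalized, and the deposited value table holds log2 values that the authors read with limma and quantile normalized with preprocessCore. The values here were recomputed from the median intensity in the scanner files. Spots with an outlier call were set to missing, replicate spots of a probe were merged by their median, and arrays were quantile normalized on the log2 scale. The written methods place the normalization before the median, but the order used here fitted the authors' table better over 38499 shared probes (mean absolute difference of 0.00179 against 0.0059 log2 units), so the written order was tried as an alternative. Quantile normalization gives all arrays one distribution, and differences are relative to the other probes.

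A probe was tested when its spots passed the quality criteria in 21 or more of the 26 arrays, or in 75% or more of those of a group. One limma model (limma 3.58.1, R 4.3.3) held the 4 groups, and both KO effects, their difference and WT against WT were contrasts of it. P-values were adjusted by Benjamini-Hochberg over all 38832 tested probes, and a call is an adjusted p of 0.05 or less. They measure the spread between mice. A gene is represented by its brightest probe, and all probes of the members were reported. The share of all genes called was counted over 25407 gene names. In each pathway list, the called genes with the largest rise and the largest fall were named, and for Pnpla2 and Pnpla3 the 3 genes of highest Pearson's r. Pnpla3 minus Pnpla2 was tested by exact two-sided permutation. The members, the lists and the tests were chosen with earlier results of these data known. The alternatives were other scalings and backgrounds, no filter, outlier spots kept, the authors' table, wash batch, slide or replicate number as a block, array weights, marker scores as covariates, and each array left out in turn. Probe positions are those in the scanner files (mm9), and promoters are in GRCm38.p6, which was not mixed with them. The precision is limited by the number of arrays.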

Additional observations from a re-analysis of the deposited data

Results flagged for a closer look

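The interaction term of limma (ChREBPβ KO effect minus total KO effect, adjusted p of 0.05) was called lower for 4 members, beside 13.1% of all genes. The term was -0.61 for Mgll at its brightest probe A_55_P2063316, -0.97 for Abhd5 at A_55_P2177233 and -1.01 at A_52_P273821, -0.59 for Aqp7 at A_52_P403405, and -0.97 for Ces1f. In each case the total KO mice were higher than their WT littermates, and the ChREBPβ effect was not called. For Mgll the KO means were 16.06 in the total line and 16.05 in the ChREBPβ line, and the WT means were 15.34 and 15.94. None of the 4 calls held with the slide as a fixed block or with the adipocyte score as a covariate. One mouse stood apart from its group. ChREBPβ KO replicate 4 had a Mgll log2 intensity of 12.85 at probe A_55_P2063312, with the next mouse at 13.08, a gap of 0.737 of the range of the group against Dixon's critical value of 0.71. This was 1 of 68 groups tested, and chance alone flags about 5% of such groups.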

How the results depend on the processing

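Of 1247 values recomputed under an alternative, 1190 kept their side of the threshold and, but for 46 that changed sign with neither value called, their direction. With 1 mouse left out, the members called ranged from 6 to 7 in total ChREBP KO, 0 to 0 in ChREBPβ KO, 4 to 5 for the difference of the effects and 2 to 5 for WT against WT. The difference of the effects went from 4 calls to 0 with the slide as a fixed block and 2 with the lymphocyte score. With the adipocyte score it had 1 call, a higher one of Ces1d, and none of the 4 stayed. It had 2 calls without the 3 KO mice of lowest lymphocyte score, an alternative chosen after seeing the data, as was the written order of steps. WT against WT went from 3 calls to 0 with the lymphocyte score, where 497 of all genes were called higher and 541 lower. With the adipocyte score, total KO went from 6 higher calls to 1 lower call, that of Pnpla3. WT against WT then went from 3 higher calls to 3 lower calls of other members, where 2588 of all genes were called higher and 1959 lower. Neither the lymphocyte nor the adipocyte score overlaps between the WT groups, so these fits separate score and line poorly. With the adipocyte score, and where either value was called, the sign turned in total KO for Pnpla2 (-0.24), Aqp7 (-0.094), Ces1d (-0.57) and Ces1f (-0.19). Such turns in the difference were those of Aqp7 (0.17), Ces1d (0.83) and Ces1f (0.24). In WT against WT they were those of Pnpla2 (-0.58), Pnpla3 (-0.041), Aqp7 (-0.35), Ces1d (-0.62) and Ces1f (-0.86). Turns under this score with neither value called included Lipe (-0.63) and G0s2 (-0.16) in total KO. They also included Pnpla2 (0.29), Pnpla3 (0.20) and Lipe (0.50) in the difference. The upstream probe turned Pnpla3 in WT against WT to -0.28. The cause was not tested. G0s2 in total KO passed with array weights (0.41, adjusted p = 0.0319) and with the slide as a fixed block (0.75, adjusted p = 0.0493). With the latter Pnpla2 (0.40, adjusted p = 0.226) and Ces1d (0.38, adjusted p = 0.307) lost their call in total KO, where 3006 genes were called higher and 2619 lower in place of 6549 and 5095. These counts were 2542 and 1502 with the lymphocyte score, 811 and 893 with the adipocyte score, and 4242 and 3401 without the 3 KO mice. The shift of Pnpla3 minus Pnpla2 ranged from -0.77 to -0.57 in the total line and from -0.63 to -0.47 in the ChREBPβ line with 1 mouse left out, and was -0.10 in the latter with the upstream probe. Over the processing alternatives tried for the shift, that probe included, the ranges were -0.80 to -0.44 and -0.63 to -0.10. The slide and the marker scores were not tried for it. Replicate numbers did not pair the mice (r of deviations from -0.36 to 0.51 in the total line and from -0.33 to 0.14 in the ChREBPβ line). With the replicate number as a block, the counts were 6, 0, 4 and 3, and the shifts -0.68 and -0.58.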
